A study of Mus musculus with 20 samples.

Results

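GCs of FL1 mice were compared between diestrus and estrus across all genes that could be tested. The FL1 line is a mouse line selected over many generations for litter size and, at first, also for litter weight, and the samples were chosen by their strain and stage labels. They are 10 of the 20 samples of the series, 5 from mice in diestrus and 5 from mice in estrus, with 1 sample per mouse. The other 10 samples are the same stages of the unselected ctrl line, which descends from the same founder population and carries no selection, and they serve here only as a comparison. The mice were females, 77 ± 5 days old, and the labels name no hormone or other treatment for either stage. The stage was read from the vaginal smear, with only cornified cells taken as estrus and only leucocytes as diestrus. From each mouse 7 to 10 of the largest follicles were opened and the mural GCs collected, while oocytes with their cumulus were left behind, so each sample pools the follicles of 1 animal. No transgene or induced mutation is involved, and the lines are outbred, so mice of a group need not be alike in their genes.

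GCs line the wall of the ovarian follicle, feed the oocyte and make estradiol from androgens supplied by the theca. Follicle stimulating hormone acts on them through its receptor and cAMP and maintains Cyp19a1, the enzyme that makes estradiol, and the inhibin subunits. The surge of luteinizing hormone that precedes ovulation turns the GCs of ovulating follicles toward progesterone synthesis and remodels the matrix around them, and new antral follicles grow through the following days of the cycle. The comparison therefore asks which transcripts of the largest follicles differ between the day of cornified smears and the day of leucocyte smears.

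Libraries read the 3′ end of polyadenylated RNA, and the values are CPM, that is, the reads counted on a gene relative to all reads counted on genes in that library, after TMM scaling. Between 5625795 and 7665947 reads per FL1 mouse were counted on genes. In all, 13114 genes passed the filter on low counts and were tested with edgeR's quasi-likelihood test. A gene is called at an adjusted p (Benjamini-Hochberg) of 0.05 or less. Log2 fold changes are diestrus minus estrus and are followed by their standard error, while values after ± beside CPM are standard deviations over 5 mice.

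The sample labelled diestrus replicate 1 stood apart and went against its label. On the first component of the 500 most variable genes, which held 26.5% of the variance, the other 4 diestrus samples lay between 14.9 and 36.5 and the estrus samples between -33.5 and -7.17. Diestrus replicate 1 lay among the estrus samples at -16.8. Over all genes tested its log2 CPM correlated with a median r of 0.803 with the other diestrus samples and of 0.827 with the estrus samples. It also held the largest share of reads with several matches in the genome among the FL1 samples, 32.5%. The comparison was also made without this sample, and values without it are given below. The sample was singled out by its expression in these same counts, so leaving it out favours a larger stage difference. Calls and adjusted p values without it are therefore no independent support.

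**Figure D1:**
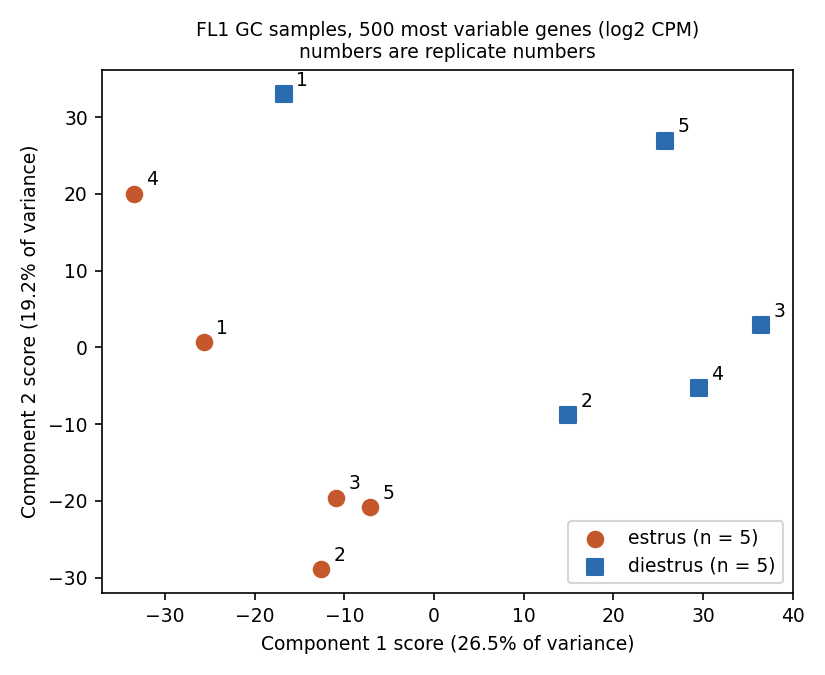
Scores of the 10 FL1 samples on the first (x axis) and second (y axis) principal component of log2 CPM over the 500 genes with the highest variance, with circles for estrus, squares for diestrus and replicate numbers beside them. On the x axis 4 of the 5 diestrus samples lie to the right of all estrus samples, and diestrus replicate 1 lies at -16.8 among the estrus samples.

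The labelled cell type was checked against marker genes. All 15 granulosa cell markers were detected and tested. Inha, the inhibin alpha subunit and the strongest of them, had 4162 ± 967 CPM in estrus and 4598 ± 883 CPM in diestrus. Summed granulosa cell markers ranged from 7329 to 14255 CPM in estrus and from 11327 to 19732 CPM in diestrus. Of these 15 markers 12 were higher and 3 lower in diestrus, against 6695 and 6419 of all 13114 genes tested. An unadjusted edgeR p under 0.05 was found for 6 of the 15, all higher in diestrus, and none was called. The theca cell markers Aldh1a1 and Nr2f2 had means of 714 and 205 CPM in estrus and of 682.5 and 133 CPM in diestrus, while Insl3, which also marks theca cells but whose 3′ end matches Jak3, was at 0 in every sample. The summed leukocyte markers reached at most 209 CPM in estrus and 188 CPM in diestrus. Summed markers of luteal cells ranged from 4898 to 10577 CPM in estrus and from 1349 to 5399 CPM in diestrus, where diestrus replicate 1 held the highest value and the next was 2917 CPM. Of these 10 luteal markers 9 were lower in diestrus and 6 of them had an unadjusted p under 0.05, and the strongest of them, Cyp11a1, is also expressed by GCs. Summed markers of stromal and smooth muscle cells ranged from 1339 to 2354 CPM in estrus and from 203 to 1509 CPM in 4 diestrus samples, with 2387 CPM in diestrus replicate 1. Erythrocyte markers were highest in diestrus replicate 1, at 1640.5 CPM. Markers of the ovarian surface epithelium summed to 54.7 to 136 CPM in estrus and 14.4 to 66.9 CPM in diestrus, those of endothelial cells to 48.9 to 162 and 47.7 to 197 CPM, and those of theca cells to 660.2 to 1363 and 740.3 to 1311 CPM. Cumulus cell markers, of which 2 of 9 could be tested, summed to 17.0 to 48.4 CPM in estrus and 58.6 to 236 CPM in diestrus. Most of this sum was Slc38a3, with means of 22.8 CPM in estrus and 104.8 CPM in diestrus. Amh, the other tested member, went the other way (5.13 and 2.09 CPM), and 4 of the 9 had means under 1 CPM. Oocyte markers were present in both stages (222 to 649 CPM in estrus and 99.8 to 717 CPM in diestrus). The part of these other cells in the results below was not tested, and in such bulk samples fewer cells of a type cannot be told apart from less RNA per cell.

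Between the stages 29 genes were differentially expressed, which is 0.221% of the genes tested. In diestrus 10 genes were stronger expressed (0.0763% of all genes) and 19 were weaker expressed (0.145%), and all 29 code for proteins. In 28 of the 29 the values of the 5 diestrus and the 5 estrus mice did not overlap, against 2.45% of all genes tested, which is the same contrast and no further support. An unadjusted p under 0.05 was found for 9.48% of the genes, and the median log2 fold change of all genes was 0.01. Leaving out any 1 diestrus mouse moved this count by over 1.5 times. Without diestrus replicate 1 the number of called genes rose to 178 (1.31% of 13580 genes), with 69 stronger and the others weaker expressed in diestrus, and these included all 29. Without diestrus replicates 2, 3, 4 or 5 it was 18, 13, 14 and 14. Replicate 1 was singled out by its expression, so the rise without it was favoured by that choice. DESeq2, the tool of the study, called 225 genes with all 10 samples (1.72%), again including the 29. When each mouse was left out in turn, 11 of the 29 were called every time, among them Mt2, Prss35, Trf, C3, Aldh1a2, Tinagl1, Ak1, Adh1, Fhdc1 and Foxp2, while 10 were called in under 5 of the 10 fits (Hspb8, Prss23, Ephx2, Itih5, Mrap, Oxtr, Glul, Mt1, Bex4 and Atrnl1). For genes that lost their call in any of these fits, the highest adjusted p over the 10 fits is given below with the mouse that was left out.

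**Figure D2:**
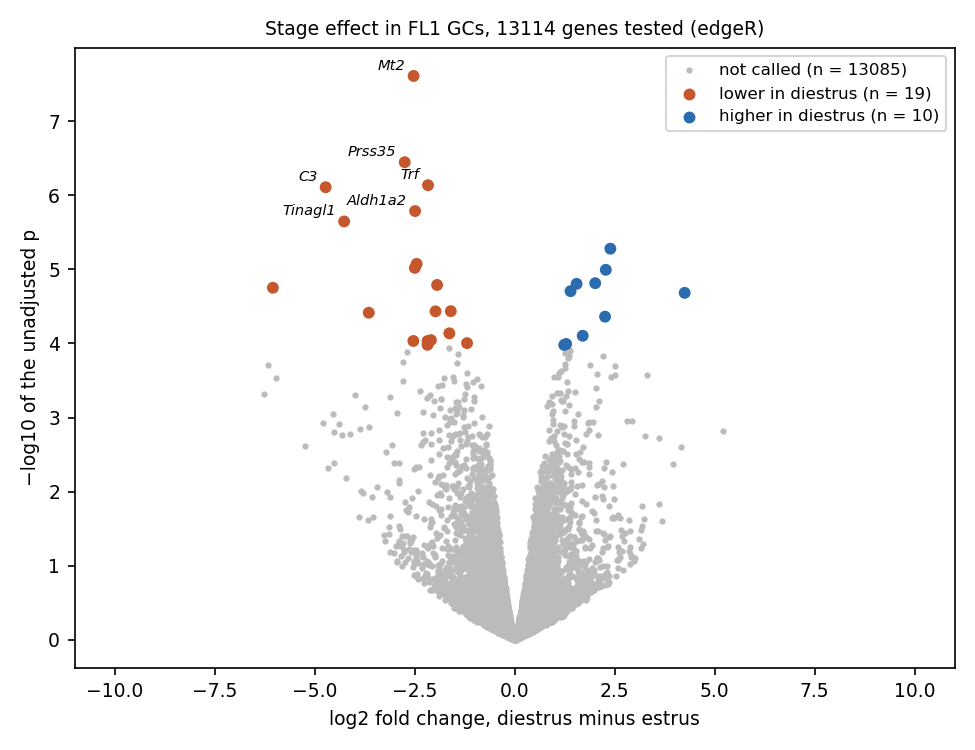
Log2 fold change between diestrus and estrus (x axis) and −log10 of the unadjusted p (y axis) for the 13114 genes tested in FL1 GCs, with called genes in colour. Mt2, with the lowest p, and Sstr1, with the largest change of the called genes (-6.04), are both among the 19 genes weaker expressed in diestrus.

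The metallothioneins Mt1 and Mt2 were both higher in estrus. They are small cysteine-rich proteins that bind zinc and copper, and their genes lie next to each other on chromosome 8. The metal response element, the site through which zinc acts on these genes by way of the factor Mtf1, has the core TGCACNC or TGCGCNC. Because the neighbours moved together, their promoters are printed from 250 bases before to 50 bases after the start given by RefSeq (GRCm38.p6, plus strand), with matches to this core on either strand in capitals. The window of Mt2 is chr8:94172368-94172667 and that of Mt1 is chr8:94178839-94179138.
Mt2: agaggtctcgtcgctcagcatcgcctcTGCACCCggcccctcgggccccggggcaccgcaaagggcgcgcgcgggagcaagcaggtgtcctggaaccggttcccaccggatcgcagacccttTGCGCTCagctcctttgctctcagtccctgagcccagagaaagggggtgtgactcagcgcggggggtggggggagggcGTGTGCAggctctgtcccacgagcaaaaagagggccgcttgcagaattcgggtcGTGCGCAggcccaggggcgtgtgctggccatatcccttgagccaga
Mt1: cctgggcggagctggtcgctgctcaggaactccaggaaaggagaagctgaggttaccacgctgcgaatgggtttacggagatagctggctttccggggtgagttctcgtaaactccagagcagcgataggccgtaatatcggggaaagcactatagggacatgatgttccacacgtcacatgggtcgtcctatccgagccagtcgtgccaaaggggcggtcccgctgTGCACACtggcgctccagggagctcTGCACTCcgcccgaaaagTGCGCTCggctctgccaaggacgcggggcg
The Mt2 window holds 4 matches and the Mt1 window 3. Of 32851 promoter windows of this length 25.7% hold at least 1 match and 1.97% hold 3 or more. A promoter window was found for 22 of the 29 called genes, and 10 of the 22 hold at least 1 match. A match is no more than a stretch of these letters.

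Positions of genes are those of GENCODE M21 on GRCm38. Mt2 (ENSMUSG00000031762, chr8:94172664-94173568) had the lowest p of all genes. Its level was 674, 1133, 699, 833 and 608 CPM in estrus replicates 1 to 5 and 217, 110.5, 101.1, 158 and 97.9 CPM in diestrus replicates 1 to 5. Every estrus mouse had more than every diestrus mouse, and the highest diestrus value was that of replicate 1. The mean was 5.77 times higher in estrus (log2 fold change -2.53 ± 0.26, edgeR adjusted p = 0.000319). Mt1 (ENSMUSG00000031765, chr8:94179082-94180327) had 835, 1394, 824, 929.7 and 898 CPM in estrus and 673, 324, 365, 436 and 339 CPM in diestrus. The stages did not overlap, although diestrus replicate 1 came close to the lowest estrus mouse. For Mt1 the log2 fold change was -1.19 ± 0.24 (edgeR adjusted p = 0.0473). For Mt2 the edgeR adjusted p stayed between 3.43e-05 and 0.00337 when each mouse was left out. Mt1 kept its call only without diestrus replicate 1 (edgeR adjusted p = 0.00277) and otherwise reached up to 0.15 (without diestrus replicate 5).

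Prss35 (chr9:86743649-86758443), a secreted protein of the trypsin family, had 438, 1117, 334, 453 and 368 CPM in the estrus mice and 108.3, 40.0, 70.1, 83.6 and 100.98 CPM in the diestrus mice. All estrus values lay above all diestrus values, and estrus replicate 2 was by far the highest mouse. On average the level was 6.72 times higher in estrus (log2 fold change -2.75 ± 0.35, edgeR adjusted p = 0.00234). Tinagl1 (chr4:130164454-130175122), a secreted protein of basement membranes, had 343, 898, 70.2, 89.1 and 149.9 CPM in estrus against 30.1, 13.4, 10.3, 10.0 and 16.7 CPM in diestrus. The estrus mice differed widely among themselves, yet the lowest of them was above the highest diestrus mouse. Its log2 fold change was -4.26 ± 0.62 (edgeR adjusted p = 0.00491). Mmp2, the gelatinase that cleaves type IV collagen, had 60.5, 38.7, 48.8, 47.4 and 68.7 CPM in estrus and 13.1, 25.9, 7.32, 6.80 and 13.7 CPM in diestrus. The stages were separate, and the mean was 3.96 times higher in estrus (log2 fold change -1.98 ± 0.36, edgeR adjusted p = 0.0265). Its call was lost in 5 of the 10 edgeR fits that left out a mouse (estrus 1 and 5 and diestrus 3, 4 and 5). The adjusted p reached up to 0.076, without diestrus replicate 5.

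In the other direction, Prss23, a serine protease that the ovary secretes, had 227, 399, 220.0, 191 and 509 CPM in diestrus and 151, 27.3, 48.5, 63.8 and 32.2 CPM in estrus. Diestrus was higher in every mouse, with estrus replicate 1 closest to it. The mean was 4.78 times higher in diestrus (log2 fold change 2.26 ± 0.42, edgeR adjusted p = 0.0285), and the adjusted p rose to 0.0879 without diestrus replicate 5. Col6a4 (chr9:105989454-106096783), a chain of type VI collagen, was nearly absent in estrus, with 0.159, 0.498, 2.54, 0.283 and 1.19 CPM, and had 33.3, 11.9, 16.4, 13.6 and 14.4 CPM in diestrus. Its fold change was the largest of the 10 genes higher in diestrus, and diestrus replicate 1 was the highest FL1 mouse. This change amounted to 4.25 ± 0.74 on the log2 scale (edgeR adjusted p = 0.017, and 0.0501 without diestrus replicate 3). Itih5, a heavy chain of the inter-alpha-trypsin inhibitors that bind hyaluronan, ranged from 259 to 461 CPM in diestrus and from 47.8 to 192 CPM in estrus. The ranges did not meet, and the log2 fold change was 1.70 ± 0.33 (edgeR adjusted p = 0.0469, and 0.0985 without diestrus replicate 2).

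A pair of receptors for peptide hormones and an accessory protein of another receptor were higher in estrus. Oxtr (chr6:112473683-112489943), the oxytocin receptor, had 122, 309, 50.7, 38.6 and 69.8 CPM in estrus and 32.2, 23.0, 20.7, 7.48 and 18.4 CPM in diestrus. Estrus replicates 1 and 2 stood well above the others, and the lowest estrus mouse (replicate 4) was just above the highest diestrus mouse (replicate 1). For Oxtr the log2 fold change was -2.53 ± 0.50 (edgeR adjusted p = 0.0473, and 0.14 without diestrus replicate 5). Sstr1, a receptor for somatostatin, had 12.5, 82.3, 3.65, 11.3 and 17.6 CPM in estrus. In diestrus it was at 0 in 3 mice and at 0.958 and 0.814 CPM in replicates 2 and 3. With so few reads the log2 fold change was -6.04 ± 1.03 (edgeR adjusted p = 0.0165), and without estrus replicate 2, by far the highest mouse, the adjusted p was 0.171. Mrap, which carries the receptor for adrenocorticotropic hormone to the cell surface, ranged from 53.9 to 256 CPM in estrus and from 16.5 to 37.6 CPM in diestrus. Its log2 fold change was -2.10 ± 0.41 (edgeR adjusted p = 0.0473), with 0.14 without diestrus replicate 5.

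Aldh1a2 (chr9:71215789-71296243), which makes retinoic acid from retinaldehyde, had 38.6, 38.6, 37.9, 29.6 and 43.0 CPM in estrus and 6.63, 4.65, 11.4, 4.25 and 6.42 CPM in diestrus. The estrus mice lay close together and well above the diestrus mice. The mean was 5.63 times higher in estrus (log2 fold change -2.49 ± 0.35, edgeR adjusted p = 0.00427). Adh1, an alcohol dehydrogenase that can also oxidise retinol, had 63.0, 48.1, 75.6, 124 and 42.1 CPM in estrus and 27.3, 10.8, 7.16, 7.14 and 9.96 CPM in diestrus. Again the stages were apart, with diestrus replicate 1 between the other diestrus mice and the estrus mice. Its log2 fold change was -2.50 ± 0.41 with all mice and -3.0 without that sample (edgeR adjusted p = 0.0133 and 0.00127). Ak1, the adenylate kinase that balances adenine nucleotides, had the same layout, with 32.1, 63.1, 66.3, 43.7 and 24.9 CPM in estrus and 16.4, 7.66, 5.53, 6.46 and 5.91 CPM in diestrus. Ak1 fell in diestrus with a log2 fold change of -2.45 ± 0.39 (edgeR adjusted p = 0.0133).

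Me1, the cytosolic malic enzyme that supplies NADPH, had 500.5, 1200.1, 592, 658 and 350.1 CPM in estrus and 308, 156, 241, 189.5 and 196 CPM in diestrus. It was higher in every estrus mouse, and the gap between estrus replicate 5 and diestrus replicate 1 was small. Me1 had a log2 fold change of -1.60 ± 0.29 (edgeR adjusted p = 0.0265), and the adjusted p rose to 0.0978 without diestrus replicate 2. Ephx2, the soluble epoxide hydrolase, ranged from 438 to 639 CPM in estrus and from 65.1 to 329.9 CPM in diestrus (log2 fold change -1.63 ± 0.32, edgeR adjusted p = 0.0455). Glul, the glutamine synthetase, was the one called gene whose stages overlapped, since estrus replicate 5 had 166 CPM and diestrus replicate 1 175 CPM. Glul had a log2 fold change of -2.18 ± 0.43 (edgeR adjusted p = 0.0473). Outside the enzymes, Abcb1b, a pump of the P-glycoprotein family, ranged from 72.2 to 175 CPM in estrus and from 20.2 to 51.5 CPM in diestrus (log2 fold change -1.94 ± 0.33, edgeR adjusted p = 0.0163). The 3′ end of Abcb1b is nearly identical to parts of Abcb1a and Abcb4, so reads can be shared among these. The calls of Ephx2, Glul and Abcb1b were lost without diestrus replicate 5 (adjusted p = 0.14, 0.142 and 0.0574).

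Of the remaining genes higher in estrus, C3 (chr17:57203970-57228136), the central component of complement, had 24.6, 18.9, 39.8, 46.5 and 35.5 CPM in estrus and 2.68, 1.09, 0, 0.680 and 1.69 CPM in diestrus. It was close to absent in diestrus, and the mean was 26.9 times higher in estrus (log2 fold change -4.73 ± 0.63, edgeR adjusted p = 0.00254). Trf (chr9:103204001-103230444), the iron carrier transferrin, had 59.4, 54.2, 77.7, 82.5 and 51.8 CPM in estrus and 16.9, 9.31, 21.3, 13.8 and 11.1 CPM in diestrus. Here diestrus replicate 1 was no higher than replicate 3, and the log2 fold change was -2.17 ± 0.29 (edgeR adjusted p = 0.00254). Hspb8, a small heat shock protein, had 17.0, 8.09, 23.6, 42.6 and 28.995 CPM in estrus and 5.84, 0.821, 1.14, 0.850 and 0.844 CPM in diestrus. Apart from replicate 1 the diestrus mice had almost no reads. Its log2 fold change was -3.65 ± 0.67 with all mice and -4.69 without that sample (edgeR adjusted p = 0.0265 and 0.00128), and the call was lost without diestrus replicate 2 (adjusted p = 0.0819). Smarca1, a motor of chromatin remodelling, ranged from 190.0 to 1277 CPM in estrus, with replicate 2 as the highest, and from 73.8 to 114.1 CPM in diestrus (log2 fold change -2.18 ± 0.44, edgeR adjusted p = 0.0473, and 0.14 without diestrus replicate 5).

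**Figure D3:**
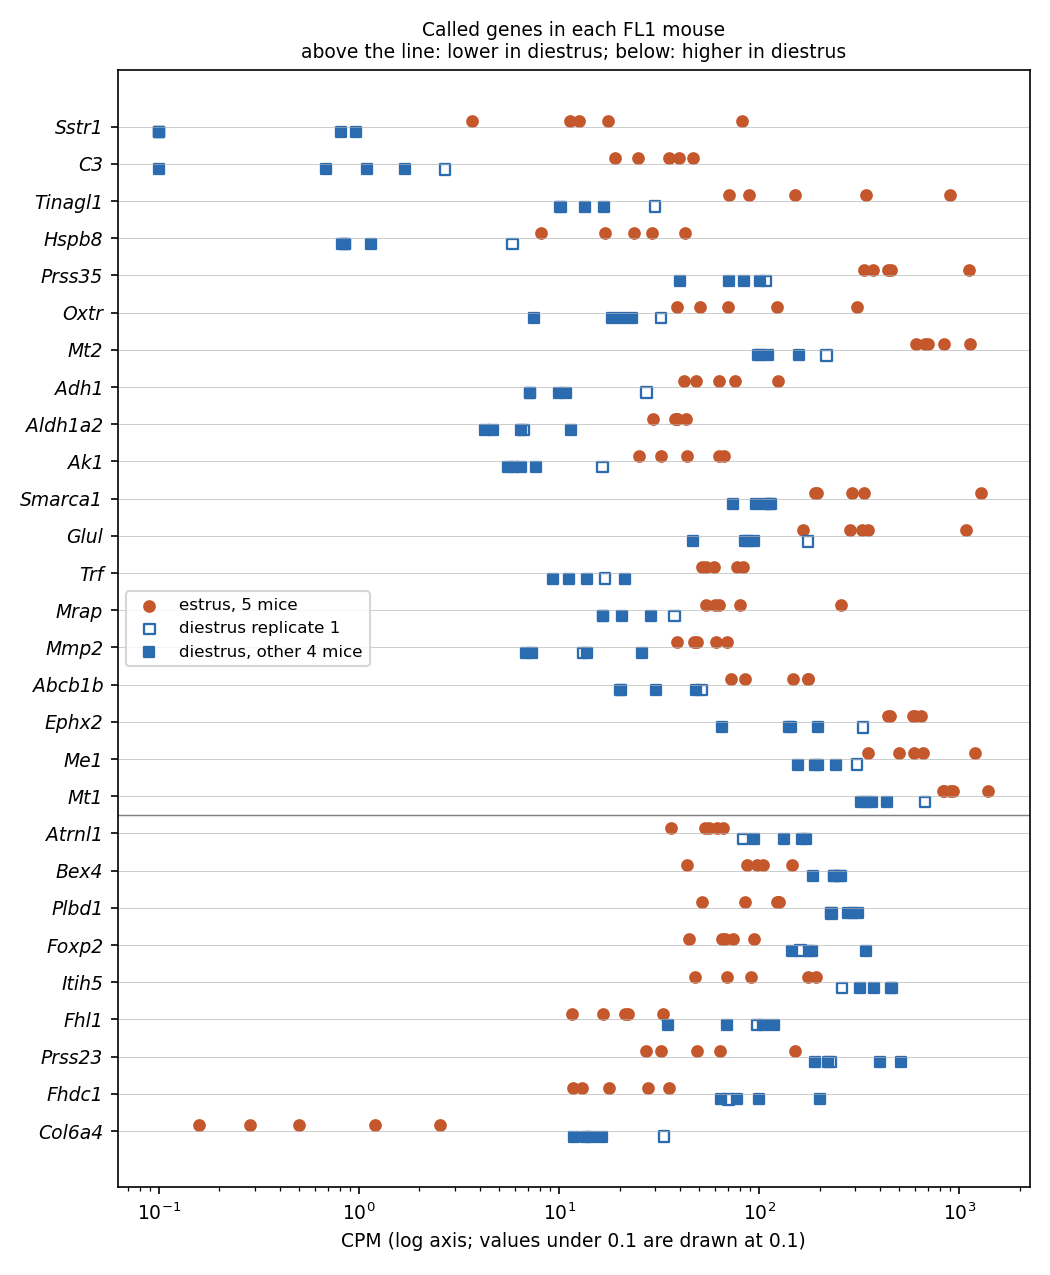
CPM on a log axis (x) for 28 of the 29 called genes (y) in each FL1 mouse, with circles for estrus and squares for diestrus, and an open square for diestrus replicate 1. Above the line, replicate 1 is the highest of the diestrus mice in 15 of the 19 genes that were lower in diestrus.

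Further genes higher in diestrus belong to none of the pathway lists. Fhdc1 (chr3:84442198-84480429), a formin-like protein of the cytoskeleton, had 70.2, 77.2, 64.3, 99.8 and 200.4 CPM in diestrus and 35.4, 11.7, 17.8, 27.7 and 13.0 CPM in estrus. All diestrus mice were above all estrus mice, with replicate 5 the highest, and the mean was 4.85 times higher in diestrus (log2 fold change 2.28 ± 0.37, edgeR adjusted p = 0.0133). Foxp2 (chr6:14901349-15441977), a forkhead transcription factor, had 161, 182, 177, 146 and 342 CPM in diestrus and 73.8, 67.0, 44.4, 94.1 and 65.3 CPM in estrus. The stages were separate, again with replicate 5 on top (log2 fold change 1.55 ± 0.26, edgeR adjusted p = 0.0163). Fhl1, a LIM domain protein, had 97.2, 118, 103.98, 68.7 and 34.8 CPM in diestrus and 11.6, 16.6, 21.2, 33.1 and 22.2 CPM in estrus. Diestrus replicate 5 was just above the highest estrus mouse, and the log2 fold change was 2.01 ± 0.34 (edgeR adjusted p = 0.0163, and 0.0521 without diestrus replicate 2).

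Another 3 genes of this direction changed less. Plbd1, a phospholipase B-like protein of lysosomes, ranged from 227 to 309.7 CPM in diestrus and from 51.8 to 125 CPM in estrus (log2 fold change 1.40 ± 0.24, edgeR adjusted p = 0.017). Bex4, a small X-linked protein, ranged from 186 to 255 CPM in diestrus and from 43.7 to 146 CPM in estrus (log2 fold change 1.29 ± 0.26, edgeR adjusted p = 0.0473). Atrnl1, a membrane protein related to attractin, ranged from 82.9 to 171 CPM in diestrus and from 36.0 to 65.8 CPM in estrus (log2 fold change 1.24 ± 0.25, edgeR adjusted p = 0.0473). None of the 3 overlapped between the stages, and without diestrus replicate 5 their adjusted p rose to 0.0574, 0.14 and 0.15. Parts of the 3′ ends of Bex4, Foxp2, Me1 and Trf match other genes closely, so their counts can likewise miss reads or hold reads of others. Of the called genes, Mt2, Aldh1a2, Adh1, Abcb1b, Plbd1, Col6a4, Me1, Prss23, Glul and Atrnl1 overlap an annotated gene on the other strand, and whether the counting used strand is not given in the sources used here. Estrus replicate 2 was the lowest estrus mouse in 7 of the 10 genes higher in diestrus and the highest in 11 of the 19 genes lower in diestrus.

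Of the receptors, enzymes and regulators that define GC function, 12 genes are given whatever their test, and none of them was called with all 10 mice. Fshr, the receptor of follicle stimulating hormone, had 86.0, 100.9, 78.1, 91.3 and 173 CPM in diestrus and 53.5, 31.4, 38.2, 77.5 and 71.8 CPM in estrus. The lowest diestrus mouse was just above the highest estrus mouse (log2 fold change 0.96 ± 0.29, edgeR adjusted p = 0.197). Cyp19a1, the aromatase, had 128, 74.5, 143, 218 and 100.3 CPM in diestrus and 33.8, 25.8, 52.0, 21.8 and 105.1 CPM in estrus. Estrus replicate 5 lay within the diestrus range. The log2 fold change was 1.48 ± 0.39 (edgeR adjusted p = 0.123, DESeq2 0.0127). Of the 10 edgeR fits that left out a mouse, 1 called Cyp19a1, the fit without estrus replicate 5 (adjusted p = 0.0251). Leaving out the mouse that overlapped favours such a call, so it is no independent support. Inhba, the activin and inhibin beta A subunit, ranged from 1479 to 4906 CPM in diestrus and from 544 to 2151 CPM in estrus (log2 fold change 1.04 ± 0.37, edgeR adjusted p = 0.315). Esr2, the estrogen receptor of GCs, ranged from 105.9 to 223 CPM in diestrus and from 50.3 to 145 CPM in estrus (log2 fold change 0.73 ± 0.27, edgeR adjusted p = 0.338).

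On the progesterone side, Cyp11a1, which cleaves the side chain of cholesterol, had 1608, 6180.0, 2163, 2262 and 1221 CPM in estrus and 1788, 575, 454, 452 and 407 CPM in diestrus. Diestrus replicate 1 lay within the estrus range, and the other 4 diestrus mice were below every estrus mouse. The log2 fold change was -1.87 ± 0.46 with all mice and -2.51 without replicate 1 (edgeR adjusted p = 0.0969 and 0.00418). Star, which brings cholesterol to that enzyme, had 355, 646, 1026, 791 and 395 CPM in estrus and 254, 420.0, 289, 288 and 108.2 CPM in diestrus. Diestrus replicate 2 overlapped with estrus replicates 1 and 5 (log2 fold change -1.24 ± 0.33, edgeR adjusted p = 0.136, DESeq2 0.00994). Lhcgr, the receptor of luteinizing hormone, was highest in estrus replicate 2 (413 CPM) and diestrus replicate 1 (179 CPM), while the other 8 mice lay between 42.5 and 97.7 CPM. Its log2 fold change of -0.92 ± 0.55 (edgeR adjusted p = 0.67) changed its sign without estrus replicate 2. Hsd3b1 (whose 3′ end resembles that of Hsd3b2), Foxl2 and Inha, which code for a steroid dehydrogenase, a transcription factor of GC identity and the inhibin alpha subunit, had log2 fold changes of -0.31 ± 0.23, 0.30 ± 0.23 and 0.14 ± 0.21. Amh and Pgr were low in both stages, with 0.318 to 8.63 and 0 to 4.29 CPM in estrus and 0 to 5.34 and 0 to 5.61 CPM in diestrus.

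The pathway lists show the same genes in their context. Of 22 lists 6 held a called gene. Of the 521 list genes tested 9 were called (1 higher and 8 lower in diestrus), which is 1.73% against 0.221% of all genes. Without diestrus replicate 1 it was 12 lists, with 34 of 530 genes called (7 higher and 27 lower), which is 6.42% against 1.31% of all genes. The lists were chosen with earlier results of these data known, so these shares are no independent support. Of all 13114 genes tested 6695 were higher and 6419 lower in diestrus. An unadjusted edgeR p under 0.05 was found for 593 of the higher and 650 of the lower genes. List counts by direction are to be read beside these numbers. Among 26 luteal genes 22 were lower in diestrus, 12 of these with an unadjusted p under 0.05, and the median log2 fold change was -0.77 against 0.01 for all genes (-0.94 against 0.0044 without diestrus replicate 1). The called member was Oxtr. Without diestrus replicate 1 the luteal list had 6 called genes, all lower in diestrus. They included S100a6, a calcium-binding protein, with -2.43 (edgeR adjusted p = 0.00659), and Mgst2, a microsomal glutathione transferase, with a log2 fold change of -2.04 (edgeR adjusted p = 0.0263), and the transcription factor Runx2 with -3.11 (edgeR adjusted p = 0.0167). In the list of steroid hormone synthesis 10 genes were higher and 11 lower in diestrus, and 12 of the 21 had an unadjusted p under 0.05. Without replicate 1 Fdx1, which passes electrons to Cyp11a1, was lower in diestrus (log2 fold change -1.98, edgeR adjusted p = 0.0156), as was the outer mitochondrial membrane protein Tspo (-1.32, edgeR adjusted p = 0.0133). Hsd17b7, which acts on estrogens and in cholesterol synthesis, was higher (1.48, edgeR adjusted p = 0.0449), and there replicate 1 was the highest mouse, at 880.3 CPM.

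In lists of lipid and energy metabolism most genes had lower values in diestrus. Of 35 tested genes of cholesterol synthesis and sterol supply 30 were lower in diestrus, 12 of these with an unadjusted p under 0.05, with a median log2 fold change of -0.46 and no call. Hmgcs1, an early enzyme of this pathway, had 362, 627, 276, 370.4 and 332 CPM in estrus and 265, 141, 189, 149 and 118 CPM in diestrus. The stages were separate (log2 fold change -1.19 ± 0.26, edgeR adjusted p = 0.0675, and 0.00839 without diestrus replicate 1). Of 26 genes of fatty acid synthesis and storage 22 were lower in diestrus (median -0.42), with Me1 called. Scd1, the stearoyl-CoA desaturase, followed at -1.78 ± 0.39 (edgeR adjusted p = 0.0675, and 0.00839 without diestrus replicate 1). Without that mouse the fatty acid list held 3 called genes lower and 1 higher in diestrus. The higher one was Cd36 (log2 fold change 1.74, edgeR adjusted p = 0.0383). Of 21 glycolytic genes 15 were lower (median -0.42), and none was called with or without replicate 1.

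Other lists held more genes with higher than with lower values in diestrus. In the inhibin, activin, AMH and BMP system 26 of 37 genes were higher in diestrus, 9 of these with an unadjusted p under 0.05, and none was called. Grem1, an antagonist of bone morphogenetic proteins, had the largest log2 fold change of this list, 2.94 ± 0.75, with 29.044, 14.0, 160.3, 14.1 and 113.6 CPM in diestrus and 6.99, 0.249, 9.99, 10.8 and 15.2 CPM in estrus. The diestrus mice spread widely and one estrus mouse overlapped with them (edgeR adjusted p = 0.118). Among 28 transcription factors of GCs 18 were higher in diestrus (median 0.25) and none was called. Foxo1, a factor that insulin and follicle stimulating hormone hold in check, had 1124, 1611, 1479, 1397 and 1967 CPM in diestrus and 887, 455, 744, 1118 and 743 CPM in estrus. Diestrus replicate 1 was level with the highest estrus mouse, and the adjusted p was 0.104 with it and 0.0297 without it (edgeR, log2 fold change 0.94 ± 0.24 and 1.03). The cell cycle list was close to all genes, since 28 of 50 genes were higher and 22 lower in diestrus, the median was 0.02 and 1 gene, Mki67, had an unadjusted p under 0.05.

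**Figure D4:**
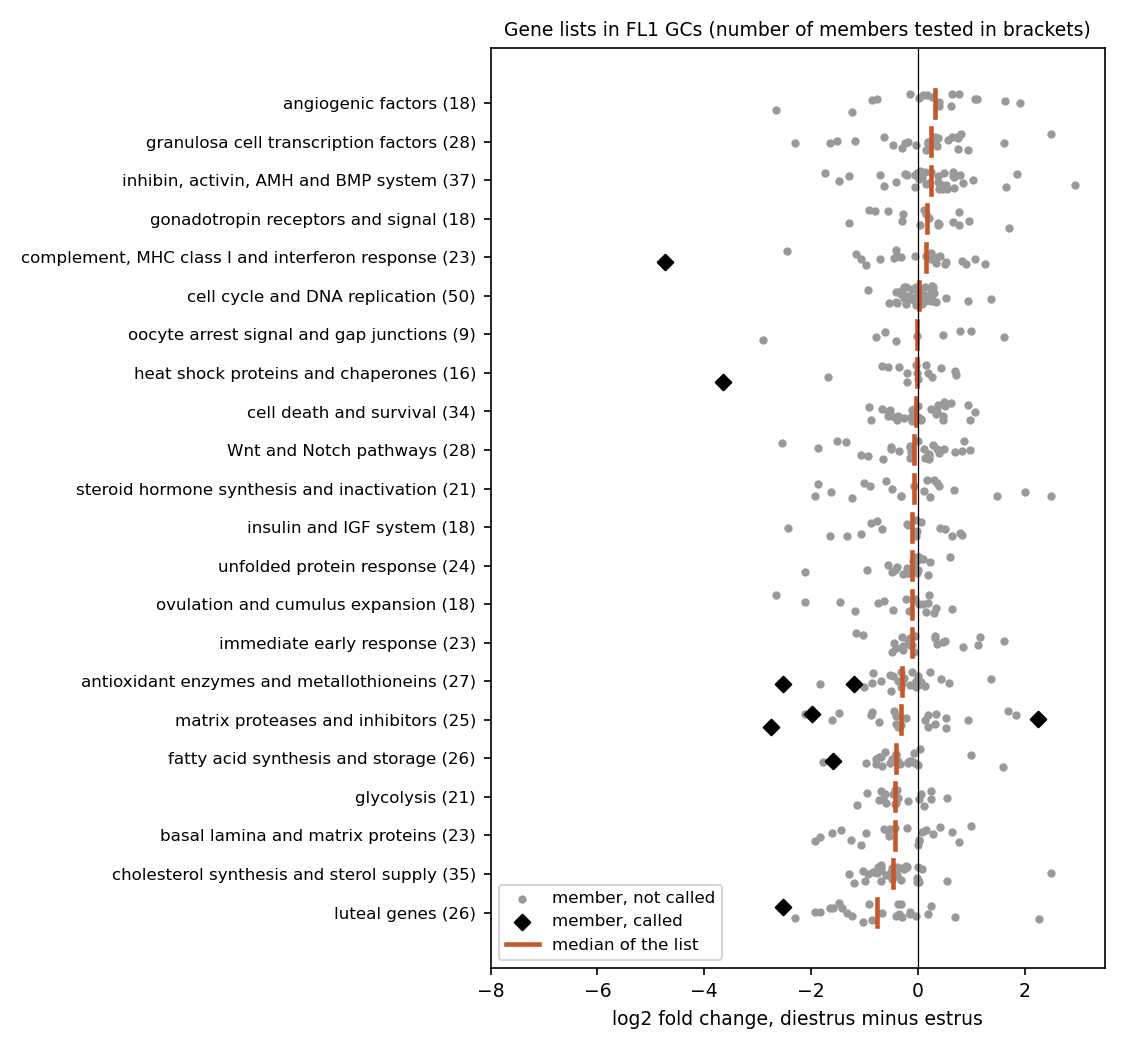
Log2 fold change between diestrus and estrus (x axis) of the tested members of 22 gene lists (y axis, ordered by median), with grey points for members, black diamonds for called members and a vertical bar for the median of each list. The luteal genes lie furthest to the left with a median of -0.77, and the cell cycle list is centred near 0.

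Matrix lists held genes of both directions. In the list of matrix proteases and inhibitors 3 of 25 genes were called, Prss35 and Mmp2 lower and Prss23 higher in diestrus. Without diestrus replicate 1 there were 7, among them the lysosomal proteases Ctsl (1.04, edgeR adjusted p = 0.0168) and Ctsb (-0.91, edgeR adjusted p = 0.0267), which moved in opposite directions. Timp1, an inhibitor of metalloproteinases, had 243 CPM in diestrus replicate 1, within the estrus range of 169 to 289 CPM, and between 8.95 and 66.7 CPM in the other diestrus mice. Its adjusted p was 0.352 with replicate 1 and 0.00785 without it (edgeR). Among 23 basal lamina and matrix proteins 14 were lower in diestrus. None was called with all mice, and without replicate 1 Sparc (-1.72), Col4a1 (-2.07) and Col3a1 (-1.43) were called (edgeR adjusted p = 0.00682, 0.0382 and 0.048). Col3a1 is also a marker of stromal cells, whose summed markers moved with these genes as given above.

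Among 27 antioxidant enzymes and metallothioneins 20 had lower values in diestrus (median -0.30), with Mt1 and Mt2 called. Among 16 heat shock proteins and chaperones 9 were lower (median -0.02), with Hspb8 called. Of 23 genes of complement, MHC class I and interferon response 11 were lower and 12 higher (median 0.16), with C3 called. The antioxidant list had 5 called genes without diestrus replicate 1, all lower in diestrus, since the glutathione peroxidase Gpx1 (-0.84, edgeR adjusted p = 0.036) and the glutathione transferases Gsto1 (-1.10, edgeR adjusted p = 0.0388) and Mgst2 came to Mt1 and Mt2. The complement list then had 2, C3 and the interferon-induced membrane protein Ifitm3 (-1.76, edgeR adjusted p = 0.00804), both lower. The lists of gonadotropin signalling, ovulation and cumulus expansion, immediate early response, unfolded protein response, cell death and survival, the insulin and IGF system, the oocyte arrest signal and gap junctions, Wnt and Notch pathways and angiogenic factors held no called gene with all mice. Their medians ranged from -0.12 to 0.33. Without replicate 1, cell death and survival held 1 call (Foxo1) and angiogenic factors 1 (Thbs1, a matrix protein that inhibits vessel growth, with 1.31 and an edgeR adjusted p of 0.0328), both higher in diestrus, and the other lists named here held none.

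The same stages were compared in ctrl mice, with which the FL1 comparison shares no sample, to see where FL1 mice differ. In ctrl mice 175 of 12850 genes were called (1.36%), 74 lower and the others higher in diestrus, with 77 (without diestrus replicate 5) to 176 when 1 ctrl mouse was left out, and 11.8% had an unadjusted p under 0.05. Of the 29 genes called in FL1 mice 28 could be tested in ctrl mice. There 26 had the same direction (10 of 10 higher and 16 of 18 lower), 17 of these with an unadjusted p under 0.05, and 9 were called (4 higher and 5 lower). These 9 are 31.0% of the FL1 calls and 5.14% of the ctrl calls. Without diestrus replicate 1 of FL1 mice, 172 of the 178 FL1 calls could be tested in ctrl mice. The direction was the same in 163 of them and 36 were called there, which is 20.2% of these FL1 calls and 20.6% of the ctrl calls. In turn, 158 of the 172 ctrl calls that could be tested in FL1 mice had the same direction there, 97 of them with an unadjusted p under 0.05. The share of all genes with the same direction in both lines is not given here, so these counts of direction have no baseline.

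A difference of the stage effect between the lines was tested as an interaction over all 20 samples. No gene was called by edgeR (0% of 14938 genes), and DESeq2 and limma-voom called 0 as well. An unadjusted p under 0.05 was found for 710 genes (4.75%), among them 16 of the 29, which were chosen by their change in FL1 mice and so by a part of this test. Mt2 was one of the 3 genes with the lowest p among those with a more negative effect in FL1 mice. In ctrl mice it had 346, 374, 248, 258 and 267 CPM in estrus and 76.3, 146, 253, 169.5 and 101.96 CPM in diestrus, so the estrus values of FL1 mice were above those of all ctrl mice. The log2 fold change was -2.53 ± 0.26 in FL1 and -1.0 ± 0.27 in ctrl mice, and their difference had an unadjusted p of 0.000439 (edgeR, adjusted p = 0.933).

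Oxtr, Col6a4 and Ephx2 also had a low unadjusted p in this test, and their stage effects were not shown to differ between the lines. Oxtr had 4.01 to 30.8 CPM in ctrl mice in estrus and 5.98 to 27.1 CPM in diestrus (log2 fold change 0.36 ± 0.59). Col6a4 had 7.33 to 23.951 CPM in ctrl mice in estrus, above all FL1 mice in estrus, and 1.62 to 83.1 CPM in diestrus (log2 fold change 0.92 ± 0.62). Ephx2 had a log2 fold change of 0.09 ± 0.32 in ctrl mice. The unadjusted p of the interaction was 0.000888, 0.00143 and 0.00118, and none of the 3 passed the adjustment in edgeR. Fhdc1, Foxp2, Prss23 and Itih5, in turn, had log2 fold changes of 2.63, 1.79, 2.09 and 1.58 in ctrl mice, where all 4 were called, beside 2.28, 1.55, 2.26 and 1.70 in FL1 mice.

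**Figure D5:**
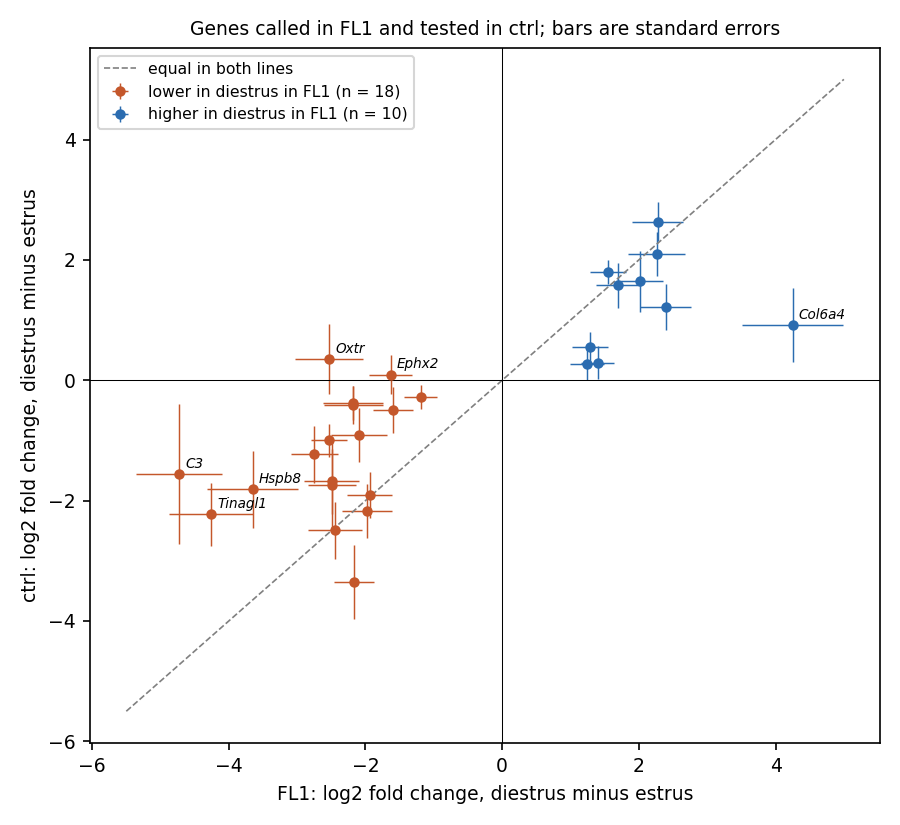
Log2 fold change between diestrus and estrus in FL1 mice (x axis) and in ctrl mice (y axis) for the 28 called genes tested in both lines, with standard errors as bars and a dashed line where both are equal. Of the 28 points 21 lie between the dashed line and the horizontal line at 0 (the genes were chosen by their change in FL1 mice), and Oxtr and Ephx2, lower in diestrus in FL1 mice, lie above 0.

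The remaining genes with the lowest p in the interaction were Hspb7, Slitrk1, Kctd14, Gm4987 and Cela1. Hspb7, a small heat shock protein, had 2.12 to 6.35 CPM in FL1 mice in estrus and was at 0 in 4 of 5 in diestrus, and in ctrl mice it was at 0 in all 5 in estrus. Slitrk1, a neuronal membrane protein, was at 0 in 9 of the 10 FL1 mice and in all ctrl mice in estrus and had 1.61 to 11.4 CPM in ctrl mice in diestrus. Kctd14, whose 3′ end in part matches other genes, fell in diestrus from 791 ± 195 to 123 ± 54.6 CPM in ctrl mice (edgeR adjusted p = 0.000359) and had 224 ± 81.0 and 105.6 ± 29.7 CPM in FL1 mice, where it was not called (edgeR adjusted p = 0.0988). Cela1, a pancreatic-type elastase, had 6.65 to 42.2 CPM in estrus and 0.169 to 9.93 CPM in diestrus in FL1 mice, and 2.97 to 7.85 CPM and 0 in ctrl mice. Gm4987 closely resembles 7 other genes, so its reads cannot be assigned with certainty. The unadjusted p of the interaction lay between 0.000327 and 0.000791 for these 5 genes.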

How the data were processed

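RNA of mural GCs of single mice was converted to QuantSeq 3′ libraries and sequenced. The processing notes of the submitters name GRCm38 and STAR, and the authors deposited 1 table of raw counts per sample, with reads of several matches counted apart. Rows that name no gene were left out of library sizes and tests. Of 55487 gene identifiers, 55227 were found in GENCODE M21 and 260 were not.

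CPM, log2 CPM (prior count 2) and all tests were computed here from the deposited counts. Genes were kept by filterByExpr (minimum count 10, total 15, share 0.7). The quasi-likelihood test of edgeR 4.0.16 with TMM scaling (R 4.3.3) was fitted to the 10 FL1 samples, with stage as the one factor, to the 10 ctrl samples in the same way, and to all 20 samples for the interaction, and it was tested on simulated data. Calls are at a Benjamini-Hochberg adjusted p of 0.05. Alternatives were DESeq2 1.42.0, limma-voom (limma 3.58.1), RLE size factors, other filters, robust estimation, a replicate block, all samples in one fit and leaving out each sample. Samples are separate mice.

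The comparison, the 22 pathway lists, the 10 marker lists and the tests were chosen with earlier results of these data known. Per direction, the 10 called protein-coding genes without overlap and with a mean count of at least 10 that had the lowest p and the 5 of these with the largest fold change are named, further the 3 called members of each list with the lowest p, the 3 interaction genes with the lowest p, and 12 GC genes whatever their test. The other called genes (Ephx2, Mrap, Glul and Smarca1) and further list members were named after their values were seen. 1 called gene is not reported here beyond the counts. Similar genes were searched with BLAST 2.17.0 using the last 500 bases of transcripts (at least 90% identity over 100 bases). Promoter windows are from RefSeq (GRCm38.p6).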

Additional observations from a re-analysis of the deposited data

Results flagged for a closer look

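Among 110 groups of 5 values (the named genes and the summed cell markers in each FL1 stage), 21 held a sample far from the other 4 by Dixon's test. For independent, normally distributed values about 1 in 20 groups, or 5.5, would be flagged. The groups here are CPM of the same mice, in genes partly chosen by their calls, so these counts do not measure an excess. Estrus replicate 2 accounted for 9 of the 21 flags and diestrus replicate 1 for 6. The stage comparison had 20 called genes without estrus replicate 2 and 178 without diestrus replicate 1.

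Estrus replicate 2 had the highest estrus value of Prss35 (1117 CPM), Sstr1 (82.3 CPM), Mrap (256 CPM), Glul (1081 CPM), Mt1 (1394 CPM), Smarca1 (1277 CPM), Cyp11a1 (6180.0 CPM) and Lhcgr (413 CPM), and the lowest sum of leukocyte markers (94.4 CPM). In diestrus, replicate 1 had the highest value of Ak1 (16.4 CPM), Adh1 (27.3 CPM), Col6a4 (33.3 CPM), Hspb8 (5.84 CPM), Cyp11a1 (1788 CPM) and Lhcgr (179 CPM). Diestrus replicate 5 had the highest diestrus value of Fhdc1 (200.4 CPM), Foxp2 (342 CPM) and Fshr (173 CPM). Diestrus replicate 4 had the lowest diestrus value of Bex4 (186 CPM) and, at 0.170 CPM, the one value of Hspb7 above 0. Estrus replicate 4 had the highest estrus value of Gm4987 (389 CPM).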

How the results depend on the processing

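Of the 29 genes called in FL1 mice, all were also called with DESeq2 (225 genes in all), without a filter on low counts (299), with RLE size factors (30) and with a mean count minimum of 10 (41). Limma-voom called 130 genes (27 shared), one fit of all 20 samples 65 (27 shared) and robust estimation 26 (22 shared). Leaving out 1 mouse gave 13 to 178 genes. The pathway lists held 41 called genes with DESeq2, 35 with limma-voom, 65 without a filter, 17 with all 20 samples and 3 to 34 when 1 mouse was left out. In ctrl mice 423 genes were called with DESeq2, 348 without a filter and 77 to 176 with 1 mouse left out. The interaction had 6 calls without a filter and 0 when any 1 of the 20 mice was left out. Among the 45 named genes tested the direction changed in 2, neither of them called. The log2 fold change of Lhcgr was 0.077 without estrus replicate 2 (range over the mice -1.57 to 0.077), and that of Gm4987 was -0.05, -0.0025, -0.10 and -0.0087 without estrus replicates 1, 2, 3 and 5 and -0.18 without diestrus replicate 1 (range -0.18 to 0.28). The causes were not tested.

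Replicate numbers are shared by the stages in the labels, but same-numbered mice deviated with r of 0.103, 0.0554, 0.0249, -0.0386 and -0.0137, and 2 of 5 correlated best with their own number. The numbers were thus not treated as pairs. A replicate block gave 28 called genes in FL1 mice (5 higher and 23 lower in diestrus, 17 shared with the 29), 158 in ctrl mice, 0 for the interaction and 10 in the pathway lists.

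Genes near 0 CPM, such as Sstr1 and Hspb7 in diestrus, rest on few reads, and the size of their fold changes is uncertain.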

Other observations

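Without diestrus replicate 1, 149 genes were called that were not among the 29. In 98 of them this mouse lay within the estrus range or beyond it, and 174 of the 178 genes had an unadjusted p under 0.05 with all mice. The genes described here were chosen after their values had been seen, from those outside the pathway lists with a low adjusted p. Lgals1, the lectin galectin 1, had 239, 237, 314, 348 and 249.7 CPM in estrus and 185, 93.8, 63.1, 35.4 and 70.2 CPM in diestrus (log2 fold change -2.08 without replicate 1, edgeR adjusted p = 0.00128). Anxa2, an annexin, had 425, 847, 341, 321 and 352 CPM in estrus and 362, 209, 97.5, 129 and 96.1 CPM in diestrus (-1.78, edgeR adjusted p = 0.00927). In both genes diestrus replicate 1 was the highest diestrus mouse. The actin-binding Tmsb4x (-1.53) and the membrane protein Emp3 (-1.62) had edgeR adjusted p values of 0.0167 and 0.00218.

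Ptprd, a receptor tyrosine phosphatase, had 425, 1246, 1226, 1032 and 1133 CPM in diestrus and 456, 227, 389.7, 458 and 471 CPM in estrus (log2 fold change 1.53, edgeR adjusted p = 0.00206). Dst, a linker of the cytoskeleton, had 59.8, 136, 212, 273 and 203 CPM in diestrus and 76.1, 68.7, 72.1, 48.7 and 84.6 CPM in estrus (1.56, edgeR adjusted p = 0.00279). The semaphorin Sema5a (1.47), the nuclear envelope protein Syne2 (1.26), the matrix protein Thbs4 (1.52) and the collagen chain Col11a1 (2.25) followed with edgeR adjusted p values of 0.00741, 0.00804, 0.00927 and 0.0161.

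The share of reads that fell on no gene was 9.67% to 12.7% in FL1 mice in estrus and 8.41% to 19.3% in diestrus, where replicates 3 and 4 had the highest values. Its part in the stage comparison was not tested.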
